A study of Mus musculus with 6 samples.

Results

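The DNA replication and cell cycle genes described here are 33 genes chosen by symbol, among 18705 distinct symbols measured in mouse liver. They comprise 8 genes of origin licensing, 4 of S phase synthesis, 8 of G1 to S control, 12 of G2 and mitosis, and 1 of the replication checkpoint. All 33 were present in the tables, and all 33 averaged 10 or more across libraries and entered the test. The libraries hold poly(A) RNA of liver from male C57BL/6 mice, 1 year old and kept on a high-fat diet (HFD). The R159 group (3 libraries) received R159, which the labels identify by this code name alone, and the vehicle group (3 libraries) received the vehicle. Both groups were injected intraperitoneally 2 times a week for 12 weeks, and both carried the same age, sex, strain and diet, so no library of lean, young or female mice enters the comparison. The labels do not state that each library came from its own animal, and the p-values therefore rest on library-to-library spread that may be partly technical.

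Cells license replication origins in G1, when CDC6 and CDT1 load the MCM2 to MCM7 helicase ring onto DNA. Cyclin D with CDK4 or CDK6, then cyclin E with CDK2, phosphorylate the retinoblastoma protein and release E2F transcription factors, which switch on the licensing and S phase genes. Cyclin B and the kinases and checkpoint proteins of mitosis are transcribed later, mostly in G2. Hepatocytes of an adult liver are mostly quiescent and often polyploid, and enter the cycle after injury or loss of tissue.

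The promoters of these genes are shown because the licensing and mitotic genes, whose values are compared below, carry different letters around their starts. A window from 250 bases before to 50 bases after the annotated gene start was taken from RefSeq (build GRCm38.p6) for 28 of the 33 genes. An E2F motif was searched as TTTCCCGC, TTTGGCGC, TTTCGCGC or TTTGCCGC, a CHR element (cell cycle genes homology region, which marks many G2 and mitosis promoters) as TTTGAA, and a CCAAT box as CCAAT, all on both strands. The E2F motif was present in the windows of 6 of 7 licensing genes (Mcm3, Mcm5, Mcm6, Mcm7, Cdc6 and Cdt1) and of 1 of 11 mitotic genes (Cdk1), against 2.26% of all 32851 windows. It was present in 0 of 4 S phase synthesis windows and in 1 of 5 G1 to S windows (Cdk2). Genes were counted if any of their windows matched, and a further window of Mcm7 held 0 E2F matches. The CHR letters were present in 9 of 11 mitotic windows and in 1 of 7 licensing windows (Mcm2), against 17.9% of all windows. CCAAT boxes occurred in 10 of 11 mitotic and 5 of 7 licensing windows, against 37.4% of all windows. For Mcm3 and Cdt1 the E2F matches, and for Plk1, Bub1b and Aurka the CHR match, lie after the gene start. All these matches describe letters and show no binding. A window without a match lacks these exact letters only, and a site that differs from them or lies outside the window would be missed. The last 160 bases before the gene start follow for 4 helicase genes and 4 mitotic genes, 5′ to 3′, with matches to any of the motifs in capitals (a match on the minus strand reads as its reverse complement, and neighbouring matches in Mcm5 and Mcm6 overlap).
Mcm2 (chr6:88898781-88898940, minus strand): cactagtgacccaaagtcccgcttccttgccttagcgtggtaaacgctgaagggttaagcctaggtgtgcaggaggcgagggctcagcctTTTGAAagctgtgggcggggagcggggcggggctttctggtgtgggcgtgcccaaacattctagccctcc
Mcm3 (chr1:20820313-20820472, minus strand): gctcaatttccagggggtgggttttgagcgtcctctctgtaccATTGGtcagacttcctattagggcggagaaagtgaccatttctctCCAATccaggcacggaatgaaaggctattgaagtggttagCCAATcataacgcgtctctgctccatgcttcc
Mcm5 (chr8:75109349-75109508, plus strand): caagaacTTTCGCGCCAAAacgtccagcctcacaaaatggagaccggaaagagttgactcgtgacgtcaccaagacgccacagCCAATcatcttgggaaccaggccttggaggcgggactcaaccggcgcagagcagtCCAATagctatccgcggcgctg
Mcm6 (chr1:128359706-128359865, minus strand): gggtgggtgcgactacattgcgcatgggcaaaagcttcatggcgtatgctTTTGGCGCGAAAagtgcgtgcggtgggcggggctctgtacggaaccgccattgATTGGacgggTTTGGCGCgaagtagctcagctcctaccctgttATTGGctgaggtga
Plk1 (chr7:122159275-122159434, plus strand): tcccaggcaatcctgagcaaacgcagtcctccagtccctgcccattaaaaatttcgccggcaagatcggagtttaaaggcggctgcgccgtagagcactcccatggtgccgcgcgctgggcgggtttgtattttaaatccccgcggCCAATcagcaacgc
Cdk1 (chr10:69352913-69353072, minus strand): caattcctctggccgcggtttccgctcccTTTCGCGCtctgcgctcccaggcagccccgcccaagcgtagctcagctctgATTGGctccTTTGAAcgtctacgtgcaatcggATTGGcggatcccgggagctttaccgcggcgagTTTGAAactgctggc
Cdc20 (chr4:118437344-118437503, minus strand): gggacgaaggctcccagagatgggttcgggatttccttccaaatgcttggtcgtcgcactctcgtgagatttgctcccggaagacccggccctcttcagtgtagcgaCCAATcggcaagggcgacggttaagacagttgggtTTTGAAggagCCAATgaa
Ccnb2 (chr9:70421555-70421714, minus strand): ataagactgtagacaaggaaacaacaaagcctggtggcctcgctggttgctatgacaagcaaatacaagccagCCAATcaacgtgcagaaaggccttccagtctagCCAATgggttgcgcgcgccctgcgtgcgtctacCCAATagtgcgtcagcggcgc

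In these stretches Mcm5 and Mcm6 each hold E2F matches that overlap on opposite strands, and Mcm6 holds a further one nearer the start. Cdc20 and Cdk1 show CHR letters close to the start beside CCAAT boxes, and Cdk1 carries an E2F match as well. The Mcm3 matches to E2F and the Plk1 match to CHR lie after the gene start, and the Ccnb2 matches to CHR lie on either side of the stretch, so they are not printed.

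Values are normalised estimated counts, which the authors deposited already scaled, by 1 factor per library as far as the steps between low values show. Fold changes are differences of log2(value + 1), R159 minus vehicle, fitted with limma over 16594 genes and called at a Benjamini-Hochberg adjusted p under 0.05. Estimated depth was 51.26 to 55.74 M reads in the R159 libraries and 65.96 to 76.69 M reads in the vehicle libraries. The R159 libraries listed 256 to 973 rows at 0, with R159 replicate 2 the highest, and the vehicle libraries 202 to 351. Across 11158 coding genes longer transcripts had lower fold changes (rho = -0.500 by Spearman, with genes as points that are not independent of each other). For that reason calls are also given with the length trend removed. Summed values of the 9 hepatocyte markers found, among them Alb and Apoa1, were far above those of every other cell type list, as the tissue label says.

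Among the 33 genes, 7 were called lower in R159 livers and 0 higher. Over all tested genes 14.2% were called lower and 12.8% higher. At an unadjusted p under 0.05 the number among the 33 was 18, beside 6880 of all 16594 tested genes. The lower genes were 4 subunits of the replicative helicase (Mcm2, Mcm3, Mcm4 and Mcm5), the G1 cyclin Ccnd1, its kinase partner Cdk6, and the mitotic kinase Plk1. The median log2 fold change was -0.69 over the 33 genes and 0.00 over all tested genes. Groups did not overlap for 13 of the 33 in the direction of lower values in R159 (background 23.6%) and for 2, Tyms and Cdk2, in the other direction (background 22.5%). In these bulk samples, fewer cells of a type and less RNA per cell cannot be told apart. With the length trend removed, 4 of the 33 were called lower (Mcm2, Mcm4, Mcm5 and Ccnd1), against 8.21% of the 16064 genes with a known length, and 0 higher, against 9.94%.

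**Figure D1:**
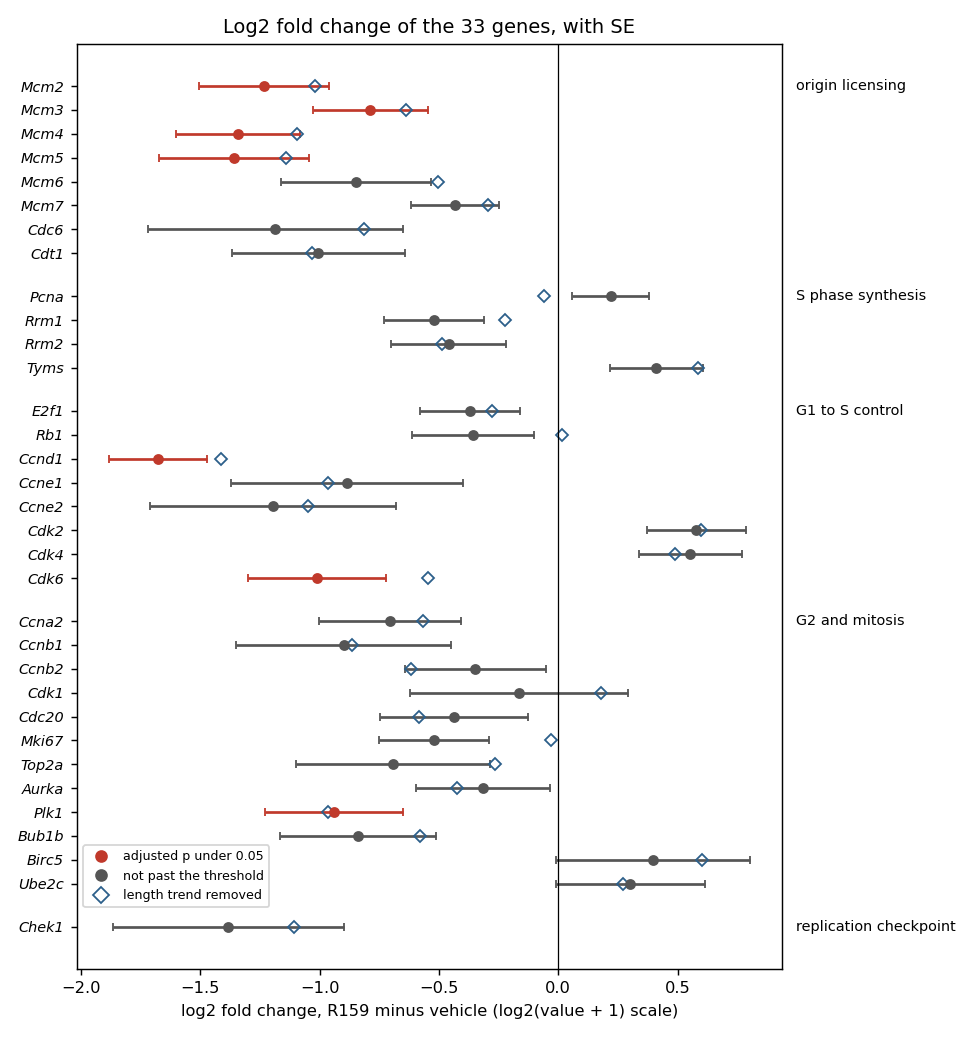
Log2 fold change (R159 minus vehicle, horizontal axis) of each of the 33 genes, grouped by role, with bars of 1 SE. Red points passed limma's adjusted p under 0.05, grey points did not, and open diamonds give the value after removal of the transcript length trend. The licensing genes all lie left of 0, between -1.36 and -0.43, whereas the mitotic genes spread from -0.94 to 0.40.

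Of 8 licensing genes, 4 were called lower and 0 higher, and the median log2 fold change was -1.10. Coding genes with transcripts as long as these (2189 to 4614 nt) were called lower in 17.2% of 6148 cases. Normalised counts of Mcm4, a helicase subunit, were 215, 263 and 175 in R159 (replicates 1, 2 and 3, an order kept throughout) and 628, 645 and 401 in vehicle. No R159 library reached the lowest vehicle library. Mcm4 fell by 1.34 on the log2 scale (SE 0.26, adjusted p by limma 0.00790), from a mean of 558 ± 136 to 218 ± 44.0 (SD, n = 3 each). It was past the threshold under every alternative tried, with adjusted p up to 0.0423, and fell by 1.09 with the length trend removed (adjusted p = 0.0259).

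Mcm2, another subunit of the ring, had normalised counts of 324, 335 and 256 in R159 and 968, 788 and 476 in vehicle. Mcm5, which together with Mcm2 forms the gate of the ring, had 229, 221 and 152 in R159 against 652, 628 and 320 in vehicle. For both genes the groups stood apart, and vehicle replicate 3 was the vehicle library nearest to R159. The log2 fold changes were -1.23 for Mcm2 (SE 0.27, adjusted p by limma 0.0131) and -1.36 for Mcm5 (SE 0.31, adjusted p by limma 0.0152). With the length trend removed they were -1.02 and -1.14 (adjusted p by limma 0.0399 and 0.0421). Both calls were lost when vehicle replicate 1 was left out (adjusted p by limma 0.0514 and 0.0589) or vehicle replicate 2 was left out (0.0548 and 0.0644). Mcm3, a further subunit, had 429, 387 and 384 in R159 and 869, 782 and 484 in vehicle. It fell by 0.79 on the log2 scale (SE 0.24, adjusted p by limma 0.0392), but was not called with the length trend removed (-0.64, adjusted p by limma 0.0986), under 3 other processing choices or without either of R159 replicates 2 and 3 or vehicle replicates 1 and 2 (adjusted p by limma 0.0830 to 0.146).

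**Figure D2:**
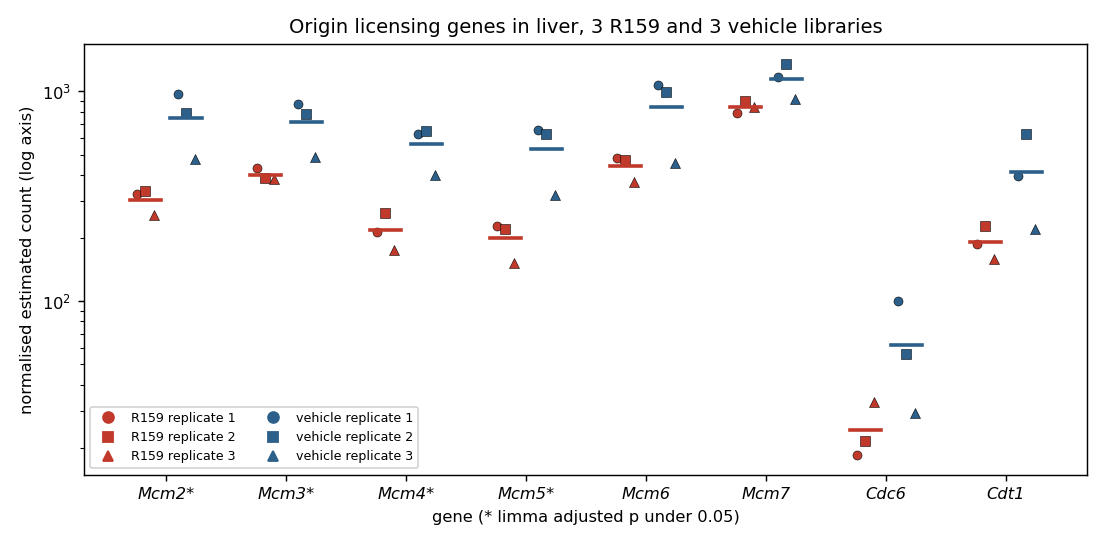
Normalised estimated count (log axis) of the 8 licensing genes in each of the 6 libraries, R159 in red and vehicle in blue, with replicates 1 to 3 as circle, square and triangle and horizontal lines at the group means. Mcm2, Mcm3, Mcm4, Mcm5 and Mcm7 have all R159 points below all vehicle points, and vehicle replicate 3 is the lowest vehicle point for every gene. Over all tested genes, groups did not overlap in that direction for 23.6%, and vehicle replicate 3 was the lowest vehicle library for 34.9%.

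The other licensing genes pointed the same way without passing the test. Mcm6 values were 481, 469 and 371 in R159 and 1077, 991 and 458 in vehicle, so vehicle replicate 3 lay within the R159 range (log2 fold change -0.85, adjusted p by limma 0.0743). Without vehicle replicate 3 Mcm6 was called (-1.24, adjusted p by limma 0.0182). Mcm7, the most abundant of the licensing genes per kilobase of transcript (normalised count 389 per kb in vehicle), had the smallest difference, from 1151 ± 217 to 843 ± 51.2 (-0.43, adjusted p by limma 0.107). Its exons overlap those of Cops6 and Ap4m1 on the opposite strand in the GENCODE M21 annotation, and its estimated reads were not whole in any library, so its reads may be divided uncertainly. The loading factor Cdt1 had 186, 229 and 158 in R159 and 395, 627 and 221 in vehicle (95% interval of the log2 fold change -1.82 to -0.19, adjusted p by limma 0.0665). Without vehicle replicate 3 it too was called (-1.39, adjusted p by limma 0.0271). Cdc6, the ATPase that brings CDT1 and the helicase to the origin, was the lowest gene of the set per kilobase and rested on 15 to 27 estimated reads in R159 and 35 to 121 in vehicle. Its log2 fold change was -1.19 with a 95% interval from -2.39 to 0.02 (adjusted p by limma 0.126).

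Vehicle replicate 3 was the lowest of the vehicle libraries for all 8 licensing genes, and for 29 of the 33 genes in total, against 34.9% of all tested genes. The count of licensing genes called lower was 6 without vehicle replicate 3, and 1 (Mcm4) without vehicle replicate 1 or without vehicle replicate 2.

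Of the 4 genes of S phase synthesis, 0 were called in either direction, beside 14.2% lower and 12.8% higher of all tested genes. At an unadjusted p under 0.05 there was 1, beside 6880 of all 16594 tested genes. Pcna, the sliding clamp of the polymerases, had normalised counts of 1898, 2443 and 1882 in R159 and 1888, 1726 and 1696 in vehicle, and the groups overlapped. Its log2 fold change was 0.22 with a 95% interval from -0.14 to 0.58 (adjusted p by limma 0.333). Reads of Pcna may be shared with its pseudogene Pcna-ps2, which has its own row. The large and small subunits of ribonucleotide reductase, which makes deoxyribonucleotides, gave -0.52 (Rrm1, adjusted p by limma 0.0924) and -0.46 (Rrm2, adjusted p by limma 0.182). Tyms, the thymidylate synthase, had 462, 581 and 489 in R159 and 396, 423 and 334 in vehicle. All R159 libraries were above all vehicle libraries, but the log2 fold change of 0.41 (SE 0.20) was not past the threshold (adjusted p by limma 0.144). Tyms has a named pseudogene, Tyms-ps, and its estimated reads were whole in 4 libraries only.

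Among 8 genes of G1 to S control, 2 were called lower and 0 higher. Ccnd1, which encodes cyclin D1, the cyclin that responds to growth signals, had 1487, 1167 and 858 in R159 and 3613, 3894 and 3481 in vehicle. Every R159 library held less than the lowest vehicle library. Ccnd1 fell by 1.68 on the log2 scale (SE 0.21, adjusted p by limma 0.00312), the largest difference among the 33 genes, and gave -1.41 with the length trend removed (adjusted p by limma 0.00437). It was called under all 20 alternatives. Some exons of Ccnd1 overlap LTO1 on the opposite strand, and its estimated reads were not whole in any library, so they too may be divided uncertainly. Cdk6, a kinase partner of the D cyclins, had 1613, 768 and 708 in R159 and 2082, 1815 and 1903 in vehicle. R159 replicate 1 lay near the vehicle range and the other R159 libraries well below it. The fall of 1.01 (SE 0.29, adjusted p by limma 0.0318) was -0.55 with the length trend removed (adjusted p by limma 0.0818); its transcript, 11525 nt, is the longest of the 33. Leaving out R159 replicate 2 or 3, or any vehicle library, or fitting without a trended prior (adjusted p by limma 0.0837), likewise left Cdk6 without a call (leave-one-out adjusted p by limma 0.0741 to 0.0945).

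Cdk4, the other D cyclin kinase, pointed the other way, with 2206, 3845 and 2993 in R159 and 2257, 1737 and 2047 in vehicle (log2 fold change 0.55, adjusted p by limma 0.0851). R159 replicate 1 lay inside the vehicle range, and without it Cdk4 was called higher (0.76, adjusted p by limma 0.0167). Its exons overlap Tspan31 on the opposite strand, and its estimated reads were not whole. Cdk2, the kinase partner of cyclins E and A, had 1014, 706 and 726 in R159 and 458, 559 and 610 in vehicle (0.58, 95% interval 0.11 to 1.05, adjusted p by limma 0.0670). Its groups did not overlap, but it was called only with upper quartile scaling among the alternatives (0.66, adjusted p by limma 0.0437). Thus within the cyclin D complexes the cyclin and one kinase gene were called lower, while the values of the other kinase gene were not below vehicle.

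The E cyclins, which activate CDK2, had low values. Ccne1 had 48.8, 86.3 and 36.8 in R159 against 124, 153 and 52.8 in vehicle (-0.89, adjusted p by limma 0.200), with vehicle replicate 3 inside the R159 range. Ccne2 was 32.1, 14.5 and 35.2 against 96.4, 54.4 and 40.3 (-1.19, 95% interval -2.36 to -0.04, adjusted p by limma 0.112), and its groups did not overlap. Some Ccne2 exons overlap Ints8 on the opposite strand, and its estimated reads were not whole in any library. E2f1, an activating E2F, gave -0.37 (95% interval -0.84 to 0.11, adjusted p by limma 0.215). Rb1, which encodes the retinoblastoma protein, gave -0.36 (adjusted p by limma 0.318), and 0.02 with the length trend removed.

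Of 12 genes of G2 and mitosis, 1 was called lower (8.33%, beside 14.2% of all tested genes) and 0 higher. A share that rests on 1 call cannot be ranked against that background. An unadjusted p under 0.05 was reached by 4, beside 6880 of all 16594 tested genes. Fold changes were negative for 10 of the 12, beside 8289 of all 16594, with a median of -0.48 on the log2 scale. Every R159 library lay below every vehicle library for 4 (background 23.6%) and above for 0 (background 22.5%). Plk1, the polo-like kinase that drives mitotic entry and spindle assembly, had 108, 87.7 and 67.4 in R159 and 168, 189 and 144 in vehicle. Some Plk1 exons overlap Gm44985 on the opposite strand, and its estimated reads were whole in 3 libraries only. The groups did not overlap, and Plk1 fell by 0.94 on the log2 scale (SE 0.29, adjusted p by limma 0.0414). This call was lost with the length trend removed (-0.97, adjusted p by limma 0.0548), with 2 other scalings, with the replicate number as a block (adjusted p by limma 0.0566) and without any single library other than R159 replicate 1 (adjusted p by limma 0.0692 to 0.171).

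**Figure D3:**
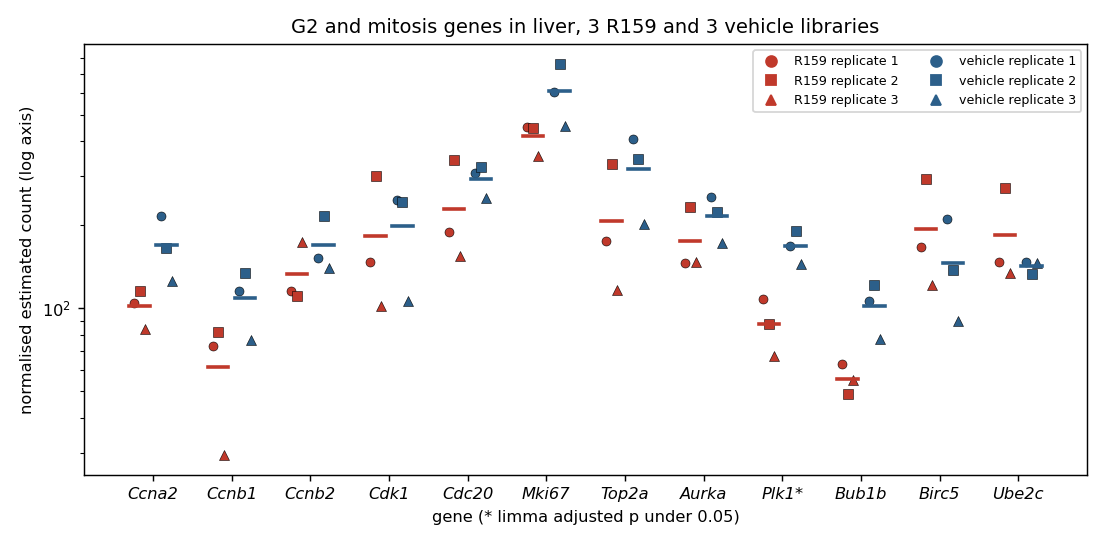
Normalised estimated count (log axis) of the 12 G2 and mitosis genes in each library, with colours and symbols for groups and replicates and lines at the group means. The groups overlap for 8 of the 12 genes, and for the other 4 every R159 point is below every vehicle point. Over all tested genes, groups did not overlap for 23.6% in that direction and for 22.5% in the other. R159 replicate 2 (red squares) is the highest R159 point for 8 of the 12 genes, beside 33.6% of all tested genes.

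The A and B cyclins had lower means in R159. Ccna2 values were 104, 116 and 84.3 in R159 and 216, 165 and 126 in vehicle (-0.71, adjusted p by limma 0.107), without overlap. Some Ccna2 exons overlap Exosc9 on the opposite strand, and its estimated reads were not whole in any library. Ccnb1 gave -0.90 (adjusted p by limma 0.161) and Ccnb2 -0.35 (adjusted p by limma 0.406), both with overlapping groups. Cdk1, the kinase that the B cyclins activate, had 146, 301 and 102 in R159 and 246, 241 and 106 in vehicle, so both groups spanned nearly the same range (-0.16, 95% interval -1.20 to 0.87, adjusted p by limma 0.812). That interval holds both 0 and the licensing median of -1.10.

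Mki67, the gene of the proliferation marker Ki-67, had 450, 449 and 353 in R159 and 605, 765 and 457 in vehicle. The gap between the highest R159 and the lowest vehicle library was small, the log2 fold change was -0.52 (adjusted p by limma 0.121), and it was -0.03 with the length trend removed, its transcript being 10061 nt long. Bub1b, a spindle checkpoint kinase, had 62.9, 48.9 and 55.2 in R159 against 106, 121 and 77.1 in vehicle (-0.84, adjusted p by limma 0.0850), and its groups did not overlap. Top2a, the topoisomerase that disentangles sister chromatids, gave -0.69 (95% interval -1.61 to 0.22, adjusted p by limma 0.228). Cdc20, an activator of the anaphase-promoting complex, and the kinase gene Aurka gave -0.44 and -0.32 (adjusted p by limma 0.316 and 0.422).

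Birc5 and Ube2c, which encode survivin and a ubiquitin-conjugating enzyme of the anaphase-promoting complex, had means above vehicle. Birc5 had 167, 292 and 121 in R159 against 210, 137 and 89.7 in vehicle (0.40, adjusted p by limma 0.492). Ube2c had 146, 272 and 134 in R159 against 146, 133 and 146 in vehicle (0.30, adjusted p by limma 0.495). Apart from R159 replicate 2, all Ube2c values lay between 133 and 146, and without that library its log2 fold change was -0.02. R159 replicate 2 was the highest R159 library for 8 of the 12 mitotic genes, against 33.6% of all tested genes. The checkpoint kinase gene Chek1, which restrains CDK activity when replication forks stall, had 23.8, 20.1 and 31.9 in R159 and 95.5, 84.6 and 36.0 in vehicle. Its log2 fold change of -1.38 (SE 0.48) was not past the threshold (adjusted p by limma 0.0612), and was -1.81 without vehicle replicate 3 (adjusted p by limma 0.0446).

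To set licensing beside mitosis within each library, the mean log2(value + 1) of each group of genes was taken relative to its vehicle mean. The licensing mean was -1.01, -0.91 and -1.15 in R159 against 0.34, 0.28 and -0.62 in vehicle. The mitotic mean was -0.45, -0.05 and -0.79 in R159 against 0.19, 0.18 and -0.38 in vehicle. Licensing values thus separated the groups, with vehicle replicate 3 between, whereas on the mitotic mean R159 replicate 2 lay above vehicle replicate 3. The licensing mean minus the mitotic mean was -0.57, -0.86 and -0.35 in R159 against 0.15, 0.09 and -0.24 in vehicle, which is lower in every R159 library, though the step from -0.35 to -0.24 is small beside the spread within each group. These means describe chosen genes and carry no test, so a difference between licensing and mitotic genes was not tested.

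**Figure D4:**
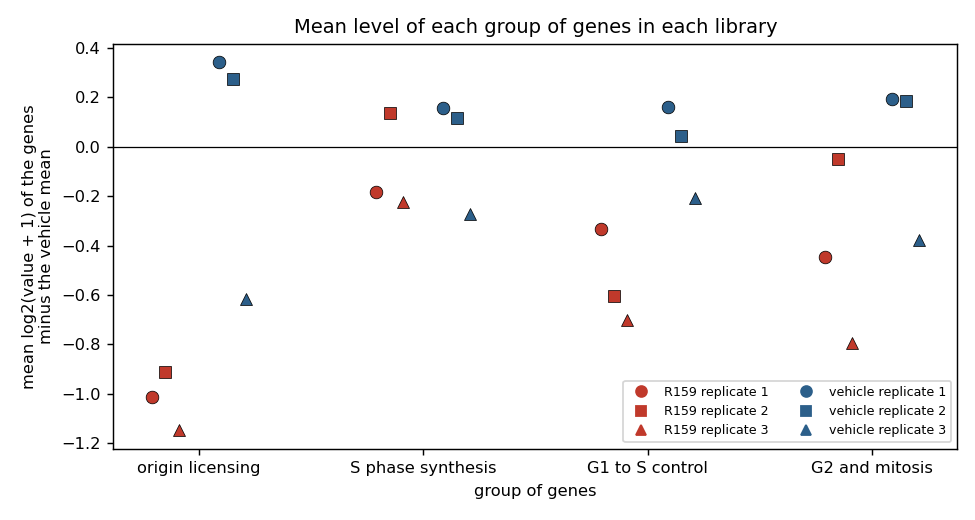
Mean log2(value + 1) of 4 groups of genes in each library, relative to the vehicle mean (0 line), with R159 in red and vehicle in blue. R159 libraries lie at -0.91 or below for licensing, while for S phase synthesis and for G2 and mitosis the groups overlap.

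**Figure D5:**
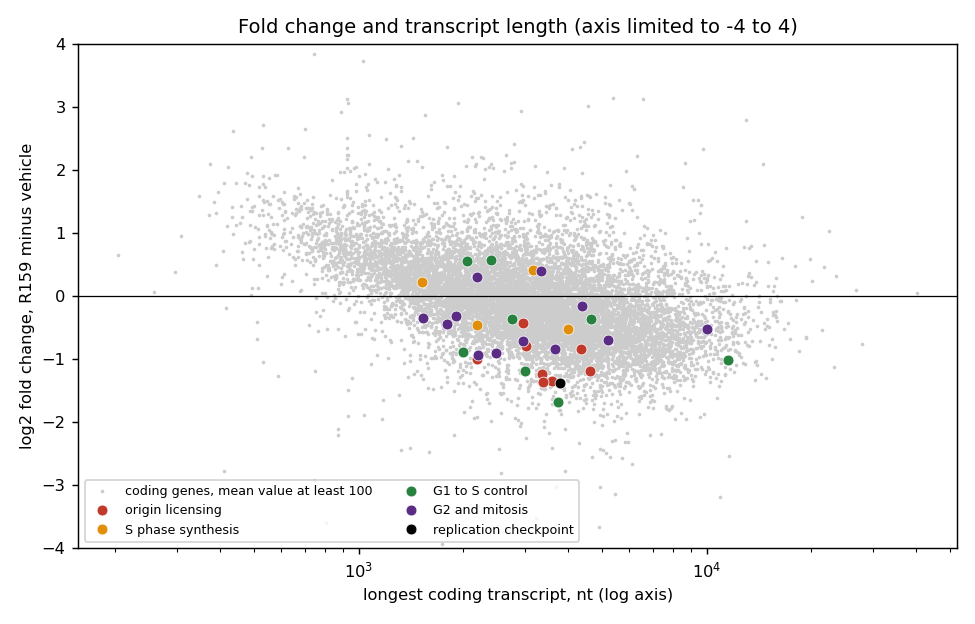
Log2 fold change (R159 minus vehicle) against the longest coding transcript (log axis) for coding genes averaging 100 or more (grey) and for the 33 genes, coloured by role. Grey points slope downward (rho = -0.500), and Ccnd1 and several Mcm genes lie toward the lower edge of the cloud at their length. Chek1 lies low as well, but its means (25.3 in R159, 72.0 in vehicle) are under the level of the grey genes.

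Genes around the 33 were read from 7 lists of the same pathways. Of 21 measured genes of origin recognition and firing, 2 were lower and 1 higher, with a median log2 fold change of 0.21. These are 9.52% and 4.76%, beside 14.2% and 12.8% of all tested genes. With the length trend removed, 0 were called lower and 2 higher, beside 8.21% and 9.94% of the genes with a known length. Gmnn, which encodes geminin, the inhibitor of CDT1, had 778, 1042 and 650 in R159 and 405, 366 and 280 in vehicle. It rose by a log2 fold change of 1.22 (SE 0.24, adjusted p by limma 0.00787), or 0.67 with the length trend removed (adjusted p by limma 0.0515; transcript 1127 nt). Topbp1, which helps to fire origins, and Mcmbp, which binds MCM proteins, fell by 0.70 and 0.56 (adjusted p by limma 0.0309 and 0.0351), and neither was called with the length trend removed (adjusted p by limma 0.271 and 0.262).

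Of 31 polymerase and fork genes, 6 were lower and 2 higher (19.4% and 6.45%, beside 14.2% and 12.8% of all tested genes), with a median of -0.04. Rfc1, a subunit of the clamp loader, had 922, 881 and 895 in R159 against 1678, 1681 and 1791 in vehicle. It fell by 0.93 on the log2 scale (SE 0.14, adjusted p by limma 0.00437). Rpa1, the large subunit of the single-strand binding protein, and Pola1, the catalytic subunit of the priming polymerase, fell, with log2 fold changes of -1.01 and -1.37 (adjusted p by limma 0.00548 and 0.00791), and Rfc1, Rpa1 and Pola1 were still called with the length trend removed (adjusted p by limma 0.0188 to 0.0445). The ligase gene Lig1 fell by 0.88 (adjusted p by limma 0.0309), and was not called with the length trend removed (-0.70, adjusted p by limma 0.0854). Rpa3, the smallest subunit of the same protein as Rpa1, rose by 1.72 and Pole4 by 0.59 (adjusted p by limma 0.00596 and 0.0233). The Rpa3 transcript is 670 nt long and that of Rpa1 5077 nt, and with the length trend removed Rpa3 gave 0.72 and Pole4 0.44 (adjusted p by limma 0.0508 and 0.0519).

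Among 18 genes of nucleotide supply, 4 (22.2%) were lower (Atic, Dck, Ctps and Cad, log2 fold changes -1.31 to -0.71) and 1 (5.56%), the thymidylate kinase gene Dtymk, higher (0.81, adjusted p by limma 0.0231). With the length trend removed, Atic and Dck were still called lower (adjusted p by limma 0.0110 and 0.0266), whereas Ctps gave -1.23, Cad -0.20 and Dtymk 0.21 (adjusted p by limma 0.0551, 0.430 and 0.439). In that fit 1 other gene of the list was called higher. Of 23 genes of the RB, E2F and DREAM machinery, 5 (21.7%) were lower and 0 higher. For this list and for nucleotide supply, the shares over all tested genes were 14.2% lower and 12.8% higher. E2f3, another activating E2F, fell by 0.89 (adjusted p by limma 0.0159), and the pocket protein gene Rbl2 gave -0.59, the DREAM subunit gene Lin54 -0.85 and the D cyclin gene Ccnd2 -0.88, all called. None of these 5 was called with the length trend removed, whereas 1 other gene of the list was then called higher. Of 7 CDK inhibitor genes, 1 (14.3%, near the 14.2% of all tested genes) was lower and 0 higher. With the length trend removed, 1 was lower and 1 higher. Cdkn1a, which encodes p21, had 444, 329 and 452 in R159 against 1561, 1177 and 700 in vehicle. It fell by 1.43 on the log2 scale (SE 0.29, adjusted p by limma 0.00948), and gave -1.48 with the length trend removed (adjusted p by limma 0.0147).

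Of 47 further genes of the mitotic apparatus, 6 were lower and 3 higher (12.8% and 6.38%, beside backgrounds of 14.2% and 12.8%), with a median of -0.51. Smc2, a condensin subunit, and Tpx2, an activator of Aurora A, fell, with log2 fold changes of -1.41 and -1.16 (adjusted p by limma 0.00938 and 0.0208). With the length trend removed Smc2 was the 1 gene of the 6 still called lower (-0.97, adjusted p by limma 0.0447), and Tpx2 gave -0.81 (adjusted p by limma 0.0894). Cks2, which binds CDK1, rose by 1.14 (adjusted p by limma 0.00460), and its transcript of 692 nt is short; with the length trend removed it gave 0.16 (adjusted p by limma 0.468). Spc24, a kinetochore subunit, and Pttg1, which encodes securin, rose by 0.93 and 0.73 (adjusted p by limma 0.0177 and 0.0263) and were called with the length trend removed as well. Of 16 genes of the ATR and ATM checkpoint, 2 (12.5%, beside 14.2% of all tested genes) were lower and 0 higher. With the length trend removed, 1 was lower and 1 higher. Wee1, the kinase that holds CDK1 inactive, had 149, 183 and 299 in R159 against 1056, 865 and 667 in vehicle. It fell by 2.07 on the log2 scale (SE 0.29, adjusted p by limma 0.00382), and gave -1.85 with the length trend removed (adjusted p by limma 0.00728). Atm had 418, 59.0 and 118 in R159 against 522, 553 and 512 in vehicle (-1.88, adjusted p by limma 0.0410), with R159 replicate 1 far above the other R159 libraries. Its transcript is 9819 nt long, and with the length trend removed it was not called (-1.38, adjusted p by limma 0.0724).

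Marker lists of hepatocytes and of other cell types that liver tissue can hold were summed in each library. For the counts of called markers below, the shares over all tested genes were 14.2% lower and 12.8% higher. With the length trend removed these shares were 8.21% and 9.94%. The 9 hepatocyte markers found summed to 4755000 to 7751000 in R159 and 3774000 to 5574000 in vehicle, ranges that overlap. Of these markers, 1 was called lower and 2 higher, or 0 and 1 with the length trend removed. Summed values of 12 Kupffer cell and macrophage markers were 15690 to 18780 in R159 and 19330 to 29280 in vehicle, with 5 of 12 called lower and 0 higher. The list went both ways: 8 of 12 log2 fold changes were negative, and the range was -3.03 to 3.07. Every R159 library was below every vehicle library for 5 markers (background 23.6%) and above for 2 (background 22.5%). The 9 stellate cell and fibroblast markers summed to 7846 to 15470 in R159 and 14320 to 28330 in vehicle, ranges that overlap slightly, with 4 of 9 lower (2 of 9 with the length trend removed). Cholangiocyte markers summed to 2677 to 5177 and 5875 to 13880, with 1 of 6 tested markers lower and 1 higher, and Cftr was listed at 0 in at least 1 library. The 7 erythroid markers found summed to 40780 to 59950 in R159 and 12940 to 21820 in vehicle, with 5 of 7 called higher. With the length trend removed 2 of the 7 were called higher, and their median log2 fold change was 1.29 in place of 2.20. T and NK cell markers overlapped between groups (320 to 619 against 273 to 720, 0 of 9 tested markers called, with Klrb1c listed at 0 in at least 1 library), as did endothelial markers (10890 to 14350 against 11890 to 15780, 0 of 9 called). B and plasma cell markers summed to 2645 to 10100 in R159 and 2089 to 2399 in vehicle, with 2 of 8 higher. With the length trend removed, 5 macrophage markers were called lower, 2 cholangiocyte markers lower and 1 higher, and 1 endothelial and 1 B or plasma cell marker higher. The part of these cell types in the values of the 33 genes was not tested.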

How the data were processed

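Liver poly(A) RNA was sequenced as paired-end reads of 50 bp from stranded libraries, per the labels' protocols. Named in the submitters' processing notes, without roles, are the build mm39 and the tools STAR 2.7.8a, R 4.2.3, DESeq2 3.5, FastQC 0.11.9 and cutadapt. The sources used here do not give the counter, its annotation or its use of strand.

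Each deposited table holds 18720 rows with 1 value per gene, a signal: partly fractional counts that the steps between low values show to be scaled by 1 factor per library. Low values step by a fixed amount in each library, from which reads and depth were estimated. The share of low values (under 200 reads) lying within 0.02 of a whole read was 67.8% to 76.0% per library, too low to treat them as counts. Of the 33 genes, 20 were whole in all 6 libraries. Of the 16 with an exon overlap or a named pseudogene in GENCODE M21, 4 were whole in all libraries, and of the 17 others 16.

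The 16594 genes averaging 10 or more were compared on log2(value + 1). The test was limma's moderated test (limma 3.58.1, R 4.3.3, trended prior, no covariate), with Benjamini-Hochberg adjustment over all tested genes and a threshold of 0.05. The scale understates changes of low genes. Transcript lengths (longest coding transcript) came from GENCODE M21 on GRCm38, for 16064 tested genes. The length trend was removed per library by a lowess curve (span 0.3) fitted on coding genes with a mean of at least 100. The code was tested on simulated data. The 33 genes, their roles and the 20 lists were chosen with earlier results of these data known. Named were all 33 genes and, of each pathway list, up to 4 called genes of smallest p per direction. Some genes under this rule are summarised by counts. Alternatives changed the pseudocount, filter, scaling, prior, sample weights, replicate block, length correction or libraries included.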

Additional observations from a re-analysis of the deposited data

How the results depend on the processing

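Over 20 alternatives, the medians of the licensing genes (-1.10) and of the mitotic genes (-0.48) stayed below 0. Leaving out each library moved them from -1.459 to -0.866 and from -0.673 to -0.354. Counts moved more. Of all genes 4479 were called, 2916 with the length trend removed, 2560 with that and the replicate block, and 1854 to 5420 when 1 library was left out. Of the 33 genes, those called lower numbered 7, 4 with the length trend removed, 15 with sample weights, and 2 to 8 when 1 library was left out (2 without vehicle replicate 1 or 2, and 4 without R159 replicate 2 or 3). Licensing genes called lower numbered 4, 7 with sample weights and 1 to 6 with a library left out. Mitotic genes called lower numbered 1, 4 with sample weights, 0 with upper quartile factors, totals without the 20 highest genes, the replicate block, the length trend removed or both, and 0 to 1 with a library left out. Genes of the 33 called higher numbered 0, 1 with upper quartile factors or sample weights, and 0 to 1 with a library left out.

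Ccnd1 and Mcm4 were called under all 20 alternatives. Signs reversed for genes that were not called: Pcna (-0.058), Rb1 (0.016) and Cdk1 (0.18) with the length trend removed, also with the replicate block added, Ube2c (-0.016) without R159 replicate 2, and Cdk1 without R159 replicate 3 (0.18), vehicle replicate 1 (0.04) or vehicle replicate 2 (0.03). Leaving out 1 library gave -0.596 to 0.181 for Cdk1 and -0.016 to 0.493 for Ube2c. The cause was not tested.

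Totals without the 20 highest genes moved the median of all genes to -0.11 and the licensing median to -1.20. Same-numbered libraries deviated together weakly (r = -0.098, 0.031 and 0.108), so the numbers were not taken as pairs. With the replicate block 3945 genes were called, and 8 of the 33 were called lower, with Mcm6 and Cdt1 gained and Plk1 lost. limma-voom on estimated reads, chosen after seeing the data, called 6 of the 33 lower, without Mcm3 (adjusted p = 0.0504). Depth limits Cdc6 (15 to 27 estimated reads in R159), Ccne2 (10.1 to 29.6) and Chek1 (14 to 26).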
